A study of Drosophila melanogaster with 28 samples.

Results

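In bam mutant Drosophila ovaries, 140 genes had more ribosome footprints at 9 h after a pulse of Bam and were back near the starting level at 38 h, while their RNA stayed nearly level at 9 h. They were chosen from 13884 genes listed in both the Ribo-seq and the RNA-seq table. A member had over 1.5 times the no HS footprint FPKM (fragments per kilobase, scaled to library size, a level per length) at 9 h AHS (after heat shock). Its 38 h to no HS footprint ratio and its 9 h to no HS RNA ratio lay between 0.8 and 1.25, and both assays exceeded 10 FPKM at 9 h. Of the 5627 genes over 10 FPKM in both assays at 9 h, 348 passed the 9 h footprint fold, 202 of these also kept their RNA in the window, and 140 met every condition. The values at no HS, 9 h and 38 h therefore chose the genes and are given as a description.

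All groups were whole adult ovaries of 1 genotype in a w background. The females carried nosP-GAL4-NGT40/+ and were homozygous for the bam86 deletion, with the insertion P{w[+mC]=hs-bam.O}11d on 1 of the 2 bam86 chromosomes, so that their only intact bam was a transgene under a heat shock promoter. Females without heat shock (no HS) hold stem-cell-like germ cells. The other females received 37°C for 1 h and 34°C for 2 h, then recovered at 25°C and were collected at 0.5, 5, 9, 18, 28 and 38 h AHS. Each time point had 2 RNA-seq and 2 Ribo-seq replicates, 28 libraries in all, but the tables give 1 pooled FPKM per gene, assay and time point with a lower and an upper 95% bound. No test between replicates could be made, and differences are held against those bounds. The pulse was transient, cysts become less uniform in stage with time, and whole ovaries also hold somatic cells, so that a change in the number of cells of a type and a change within cells cannot be told apart.

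Bam is a germline translational regulator that lets a stem cell daughter stop self-renewing and divide synchronously, with incomplete cytokinesis, into an interconnected cyst. A footprint is the stretch of mRNA that a ribosome shields from nuclease. Footprints at unchanged RNA report ribosome load per message, and their ratio is called translation efficiency (TE). Time series below list the no HS value first and then 0.5, 5, 9, 18, 28 and 38 h AHS. The bam footprints themselves ran 36.2, 2934, 493, 137, 24.1, 22.7 and 11.4 FPKM in that order. They were thus still above the starting level at 9 h and below it from 18 h on.

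The longest proteins were common among the members, and the start sites of 6 of them are shown because their footprint values recur below. Each line gives 10 bases before the start codon, the ATG in capitals and the next 10 bases, 5′ to 3′ on the coding strand, from the RefSeq dm6 (Release 6) genome.
kis: aaaaaatctgATGgatggaaatg
poe: ttaaacaataATGtcggcccaca
kst: atcaaaggccATGgagtacaata
Bruce: cacctccggaATGgccacggagc
beta-Spec: atccccagccATGacgacggaca
Chc: agtagtaaagATGacgcaaccac
These windows span the end of the 5′ UTR and the first coding bases. They lie at chr2L:242275-242297 (minus strand) for kis, chr2L:8071554-8071576 (minus) for poe and chr3L:3350245-3350267 (plus) for kst. Those of Bruce, beta-Spec and Chc lie at chr3R:10331175-10331197 (minus), chrX:17661174-17661196 (plus) and chrX:15834152-15834174 (minus). A purine stood 3 bases before the annotated start in 125 of 140 members (89.3%) and in 90.0% of the 5582 genes over 10 FPKM with a window. The start was an ATG in 137 of the 140 members (97.9%) and in 99.8% of the 5582 genes. The favoured fly context CAAAATG, read on the coding strand only, was present in 4.29% of members and 7.11% of all these genes, with the start codon of the longest coding region used for each gene.

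The members' footprints had median log2 changes from no HS of 0.17, 0.38, 0.67, 0.17, 0.14 and 0.08 from 0.5 to 38 h. Over all 5627 genes the same medians were 0.05, -0.04, 0.01, 0.06, -0.06 and -0.05. Measured from no HS, the levels thus climbed through 5 h, and most of the excess was gone at 18 h. The rule used that no HS value, and choosing genes low at no HS would by itself raise the medians at every other time. RNA moved little, with member medians of 0.08, 0.11, -0.02, -0.06 and -0.07 from 5 to 38 h. Over all genes the RNA medians were 0.05, 0.08, 0.02, 0.07 and 0.06. No member had RNA more than 1.6-fold from no HS at 5, 9, 18, 28 or 38 h in either direction, whereas 0.64%, 1.03%, 0.96%, 1.17% and 1.16% of all genes were that much higher and 0.586%, 1.14%, 0.338%, 0.32% and 0.373% that much lower. The RNA window of the rule fixes the count at 9 h, and its no HS value enters the counts at the other times too. The largest RNA value over no HS and 5 to 38 h was 1.25 times the smallest in the median member and 1.24 times over all genes.

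**Figure D1:**
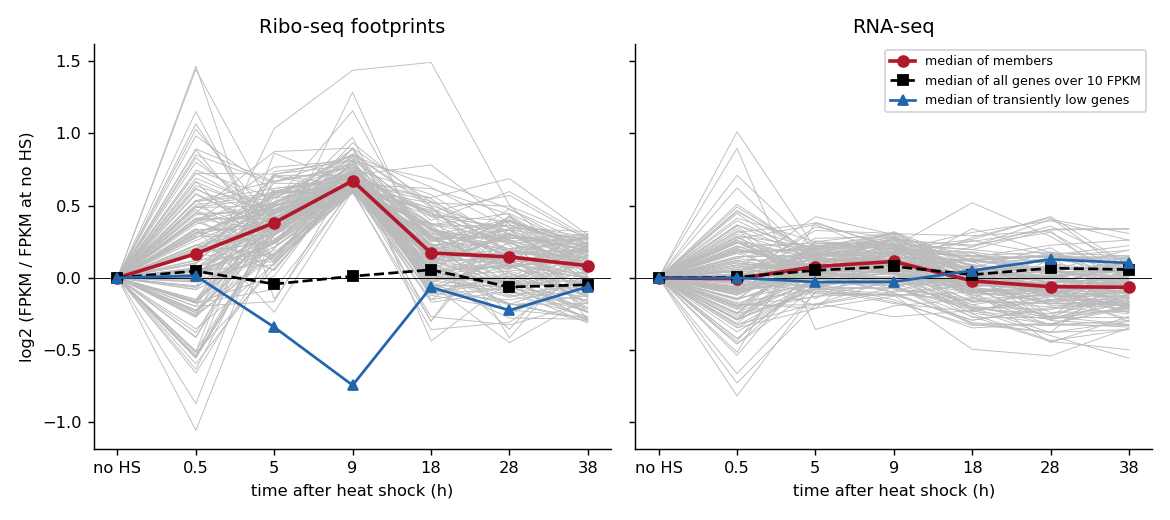
Log2 change in FPKM from no HS for footprints (left) and RNA (right) against time after heat shock. Grey lines are the 140 members and coloured lines are medians; the members' footprint median reaches 0.67 at 9 h and 0.17 at 18 h, while their RNA median stays between -0.07 and 0.11.

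The highest of the 7 footprint values fell at 9 h in 120 members. Of the other 20, 14 peaked at 0.5 h, 4 peaked at 5 h and 1 each at 18 h and 28 h, so "at 9 h only" holds for no HS and 38 h by construction and not for every other time point. The deposited bounds at 9 h lay wholly above those at no HS in 50 of 140 members (35.7%, against 2.42% of all genes, on a contrast that the rule used). In the other 90 members the bounds met. The median standard error implied by the bounds was 11.7% of the footprint FPKM at 9 h, which is wide beside a 1.5-fold threshold. The RNA row of 74 members and the footprint row of 14 share a locus with another row, where overlapping genes can share reads. The RNA estimate was marked as failed at 1 or 2 times in 4 members, poe among them.

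Several of the most abundant and most changed members are small proteins. Tsp42Ee, a membrane-spanning tetraspanin and the member with the highest level, had footprints of 2673, 2696, 3353, 4079, 2949, 3289 and 3108 FPKM. Its RNA lay between 526 and 674 FPKM throughout, and the 9 h and no HS bounds of its footprints overlapped. MED9, a subunit of the Mediator bridge between transcription factors and RNA polymerase II, gave 109, 107, 141, 209, 154, 109 and 122 footprint FPKM. Only 9 h stood clear of no HS by its bounds (159 to 259 against 77.5 to 141). mRpL32, a protein of the mitochondrial large ribosomal subunit, gave 101, 110, 140, 180, 122, 127 and 107 FPKM, again with bounds at 9 h above those at no HS. The RNA rows of MED9 and mRpL32 share a locus with another row, but their footprint rows do not.

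Further abundant members were CG7637, with 1720 footprint FPKM at no HS and 2596 at 9 h, CG42565 with 1471 and 2367, CG42394 with 264 and 438, and the nuclear envelope protein kuk with 199 and 312. CG12929 went from 102 to 157 FPKM and CG12659 from 94.4 to 156. The bounds parted in CG42565 and kuk and met in the other 4. All of these had footprint levels well above the members' median of 32.2 FPKM at 9 h.

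The largest 9 h ratio, 2.71 in pre-mod(mdg4)-Z, rested on bounds from 0 to 54.3 FPKM at no HS and 0 to 116 at 9 h, and its locus is shared with other rows of both tables. Its footprints were as high at 18 h (41.5 FPKM) as at 9 h (40.0). su(w[a]), a regulator of splicing, followed with a ratio of 2.44, from 35.5 to 86.6 FPKM, with bounds that met and an RNA row that shares its locus. Tes, a LIM-domain protein, had 6.48 FPKM at no HS and 14.4 at 9 h, a ratio of 2.23 with bounds that parted. CG34183, with a 9 h ratio of 1.96, was highest at 0.5 h, at 174 footprint FPKM against 63.9 at no HS and 125 at 9 h, and its RNA also peaked there at 70.2 FPKM against 34.8. CG6962 had a ratio of 1.86 and Daxx, a histone chaperone relative, one of 1.81, both with bounds that parted.

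Among very long cytoskeletal proteins, kst (karst), the heavy beta-spectrin of the apical membrane skeleton, stood out in ratio. Its footprints were 13.7, 11.6, 16.9, 25.5, 14.7, 18.4 and 14.5 FPKM. Its RNA was lower at 9 h (47.2 FPKM) than at no HS (53.4), and the footprint bounds at 9 h (19.9 to 31.1) cleared those at no HS (10.8 to 16.5). beta-Spec, the conventional beta-spectrin, had 45.9 footprint FPKM at no HS, 71.5 at 9 h and 45.8 at 38 h at an RNA level of 106 FPKM at both no HS and 9 h. These 2 were the members among 42 measured actin, septin and spectrin genes, of which 9 were over 1.5-fold higher and 1 over 1.5-fold lower in footprints at 9 h. Over all genes 6.18% were higher and 8.78% lower by that fold, on a contrast that the rule used. Members made up 2.49% of all genes, the share beside which each list count below stands.

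Chromatin and transcription regulators gave 5 members of 50 measured, with 7 over 1.5-fold higher in footprints at 9 h and none lower by that fold. They encode long proteins, with a list median of 1619.5 residues. Among all genes encoding 1235 to 8805 residues, 10.7% were members and 16.6% passed the fold. kis (kismet), a chromodomain helicase remodeller, had footprints of 22.3, 16.8, 29.6, 41.5, 26.6, 28.1 and 22.0 FPKM, at RNA levels of 97.9 to 117 FPKM. Its 9 h bounds cleared those at no HS, but its row shares a locus with another in both tables, as do those of Not1, MED24 and Cad87A. Nipped-A, the TRRAP-like scaffold of histone acetyltransferase complexes, went from 25.2 to 45.0 FPKM, with bounds that parted. MED23 went from 12.02 to 19.8 and MED24 from 17.8 to 28.3 FPKM, while E(bx), the large NURF remodeller subunit, went from 34.7 to 52.1 and met the threshold by a ratio of only 1.50. The bounds met in MED24 and E(bx).

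Members on the chromosome and division lists were few, as they were over all genes (2.49%). ana3, a centriole protein, had 14.2 footprint FPKM at no HS, 26.3 at 9 h and 11.5 at 38 h, and Spc105R, the KNL1-type kinetochore scaffold, had 10.0, 15.5 and 8.50, with bounds at 9 h and no HS that parted in ana3 and met in Spc105R. These were 2 of 69 measured spindle, centrosome and kinetochore genes, of which 25 were over 1.5-fold higher in footprints at 9 h. Only 34 of the 69 kept their RNA in the 0.8 to 1.25 window, a smaller share than the 81.7% of all genes. The cohesin loader Nipped-B (34.4, 53.7 and 41.3 FPKM at no HS, 9 h and 38 h, with bounds that met) was 1 of 23 measured chromosome structure genes, 6 of which passed the fold. The catalytic subunit of DNA polymerase alpha, DNApol-alpha180 (28.1, 42.3 and 25.0 FPKM, with bounds that met), was 1 of 43 DNA replication genes, 11 of which passed the fold and 13 of which kept their RNA in the window. The median RNA change at 9 h was 0.46 on the log2 scale for the replication list and 0.33 for the spindle list, against 0.08 over all genes.

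The lists of repression and decay, ubiquitin and traffic genes held 4 members. Not1, the scaffold of the CCR4-NOT deadenylase, gave footprints of 83.2, 84.8, 111, 137, 102, 110 and 86.1 FPKM. It was the member among 37 measured repression and decay genes, of which 3 were over 1.5-fold higher and 4 lower. poe, a giant UBR4-type ubiquitin ligase, gave 51.0, 63.0, 67.3, 84.4, 51.3, 50.3 and 43.9 FPKM, and its RNA went from 163 FPKM at no HS to 125 at 28 h. Bruce, a giant inhibitor of apoptosis that carries ubiquitin-conjugating activity, gave 23.7, 23.9, 28.1, 36.9, 22.5, 21.0 and 19.5. poe and Bruce were the 2 of 23 ubiquitin genes over 1.5-fold higher, and only poe had bounds that parted. Chc, the clathrin heavy chain, gave 181, 204, 243, 275, 202, 193 and 195 FPKM at RNA levels of 222 to 244 and with bounds that met at 9 h and no HS, as 1 of 3 genes past the fold among 29 measured traffic genes.

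tud (Tudor), a germ granule protein, had 23.5 footprint FPKM at no HS, 35.3 at 9 h and 28.7 at 38 h, with overlapping bounds, and was the member among 16 germline markers. None of the 21 TOR and insulin genes passed the fold in either direction. No cytosolic ribosomal protein on the list was a member. Of 89 measured, 32 were over 1.5-fold lower in footprints at 9 h (against 8.78% of all genes), with a median log2 change of -0.47. RNA stayed in the window in 87 of the 89 (against 81.7% of all genes). The lists of lipid enzymes (13 measured), heat shock genes (14), sheath muscle (10), follicle and escort cell (13) and fat body and hemocyte markers (2) held no member. With 2.49% of all genes being members, lists this short would mostly hold none. Across the lists, median protein length ran from 156.5 residues (ribosomal proteins) and 330 (sheath muscle) to 1415 (ubiquitin) and 1619.5 (chromatin). Over all genes it was 456. How far length accounts for the list counts was not tested. These lists were set up with earlier results of these data known, and 16 members were on any of them.

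**Figure D2:**
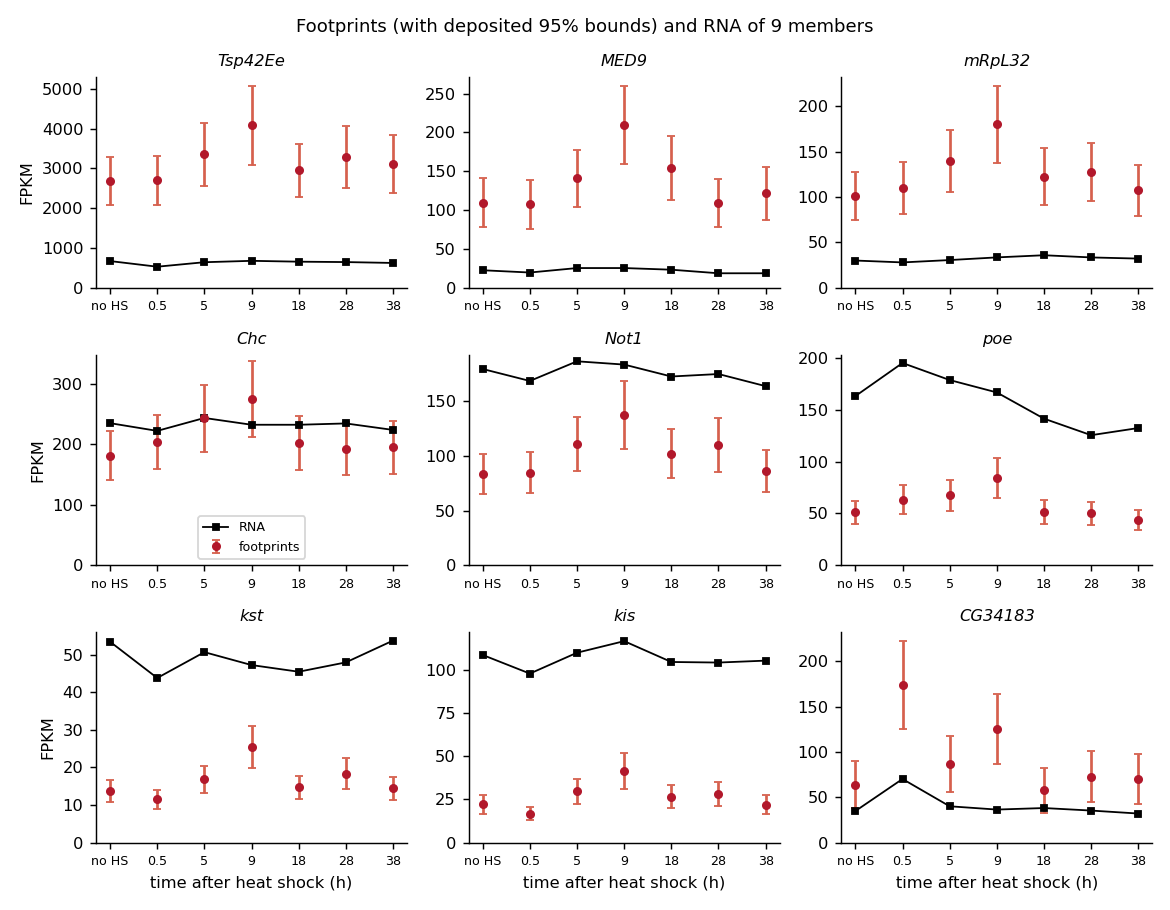
Footprint FPKM (red points, bars are the deposited 95% bounds) and RNA FPKM (black) against time after heat shock for 9 members; each axis starts at 0. Footprints were highest at 9 h in 8 of the 9, with CG34183 highest at 0.5 h, and RNA spanned a smaller fold range than footprints in each.

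Families read from the symbols after the members' values were seen gave further context. Mediator had 4 members (MED9, MED17, MED23 and MED24) among 25 measured subunits, 16 of which were above no HS in footprints at 9 h, with changes from -0.72 to 0.93 on the log2 scale. Nucleoporins had 4 members (Gp210, Nup188, Nup214 and Nup358) among 18, and 16 were above no HS with a median log2 change of 0.46. Integrator had 2 (IntS3 and IntS8) of 13, and TBP-associated factors 2 (Taf1 and Taf5) of 9. Of 3 Fanconi anemia proteins all were over 1.5-fold higher, and FANCI and Fancd2 were members. Over all genes 2.49% were members and 51.2% were above no HS at 9 h, with a median log2 change of 0.01. Median protein lengths were 268 residues for Mediator, 1022.5 for nucleoporins, 1001 for Integrator, 606 for TBP-associated factors and 1478 for the Fanconi proteins. Among all genes encoding 867 to 1234 residues, 4.46% were members and the median 9 h footprint change was 0.20 on the log2 scale. For 1235 to 8805 residues these values were 10.7% and 0.33. How far length accounts for the family values was not tested. Grouped after their values were seen, these families are a description.

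The members encoded longer proteins than the other genes, a property the rule did not use. Their median was 1019 residues, from 64 in CG7637 to 5517 in kis, against 456 over 5600 annotated genes over the FPKM minimum and 280 in the 158 genes that met the mirror rule, with footprints transiently low at 9 h. Of the members, 72 (51.4%) encode proteins over 1000 residues, against 15.2% of all genes and 1 of the 158 transiently low ones. Among 10 equal groups of genes by length, the longest (1235 to 8805 residues) held 10.7% members and 0 transiently low genes, whereas in the shortest 1.61% were members and 5.18% transiently low. Long proteins apart, 13 members had up to 200 residues, so the set is not of 1 size.

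The length relation was a property of the whole 9 h footprint profile. The median log2 footprint change of all genes went from -0.19 in the shortest group to 0.33 in the longest at 9 h. The shortest and longest groups had medians of -0.18 and 0.05 (5 h), 0.08 and 0.06 (18 h), -0.20 and 0.05 (28 h), and -0.13 and -0.07 (38 h). In RNA at 9 h they were 0.15 and 0.00. When the running median over protein length was removed from each change, 108 genes met the rule, of which 43 were among the 140, and the 72 members over 1000 residues were all lost. The 108 had a median length of 288 residues. Measured against genes of like length, none of those 72 still met the rule.

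**Figure D3:**
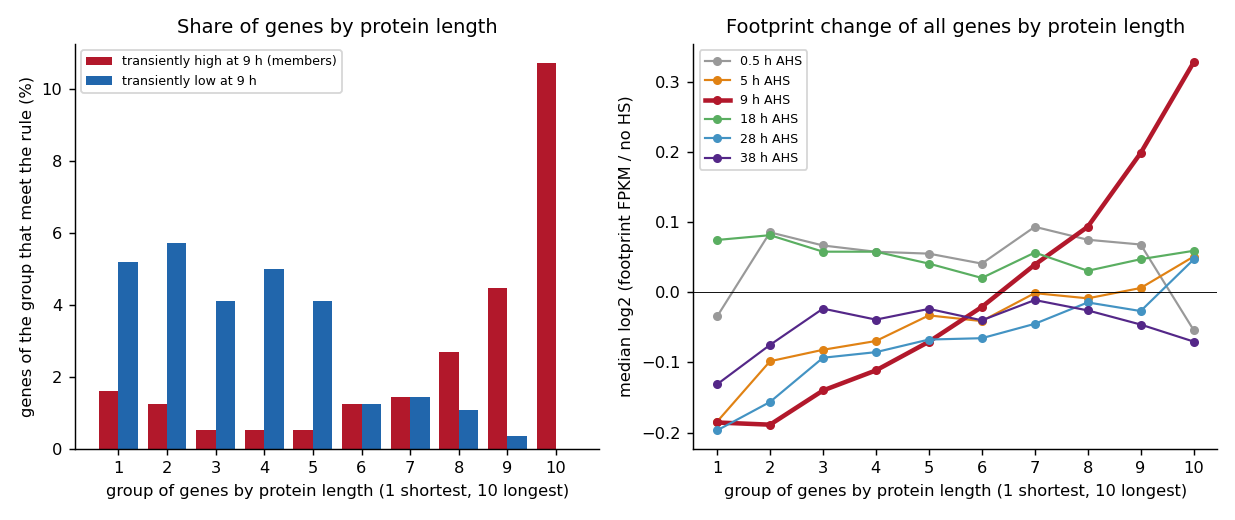
Left, percentage of genes in each of 10 equal groups by protein length that were transiently high (red) or low (blue) in footprints at 9 h. Right, median log2 footprint change from no HS of all genes in each group, by time point; the 9 h line runs from -0.19 to 0.33.

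Other sequence properties were compared within long genes too. That comparison did not match length, as members over 1000 residues had a median of 1910.5 residues against 1378 in all genes over 1000. The members' coding regions had a median GC content of 51.3% against 54.7% over all genes, and 60.3% against 67.5% at the wobble (last) position of codons. Among proteins over 1000 residues the wobble-position medians were 57.1% in members and 62.9% in all genes. Their median 3′ UTR was 294 nt against 238 nt over all genes, but 295 against 430 nt among proteins over 1000 residues, so the direction depended on length. Chromosome arm 2R held 39 members (27.9%, against 20.9% of all genes) and chromosome 4 held 4 (2.86%, against 0.821%).

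TE is a ratio across 2 tables that were normalized separately, and it is not an absolute. A change between times also carries the scaling of both tables, which gene sets at 1 time share. The members' median TE was 0.670, 0.762, 0.763, 0.997, 0.754, 0.775 and 0.680. All genes had medians of 1.44 at no HS and 1.35 at 9 h, and genes for proteins over 1000 residues had 0.642 and 0.763. The members' starting median was thus below that of all genes and close to that of long genes. Their TE at no HS, 9 h and 38 h rests on footprints that the rule used, so these medians are a description. Choosing genes low in footprints at no HS would by itself lower the starting TE. Some short members began high, such as CG42565 at a TE of 6.88 and MED9 at 4.88, both with an RNA row that shares its locus.

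The times that the rule left out were compared with each other, since neither value chose the genes. Footprints at 5 h were above those at 28 h in 118 of 140 members (84.3%), against 53.5% of all genes, with a median log2 difference of 0.29 against 0.03. The members over 1000 residues gave 58 of 72 (80.6%) and a median of 0.28, against 50.5% and 0.00 over all 853 genes above that limit. Length was not matched here, with medians of 1910.5 residues in those 72 members and 1378 in the 853 genes. The individual differences were small, however, with 6 members more than 1.6-fold higher at 5 h (4.29%, against 3.31% of all genes) and none more than 1.6-fold lower (against 2.67%). All 6 share their RNA locus with another row, but none shares its footprint locus. The count was 0 without genes that share a locus or have a failed estimate, a filter that removed these 6 through their RNA rows. The bounds at 5 h lay above those at 28 h in 2 members (1.43%, against 2.06%). RNA also leaned this way, with 109 members (77.9%) above at 5 h against 47.9% of all genes and a median log2 difference of 0.13, against -0.01 over all genes and 0.09 over genes for proteins over 1000 residues.

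**Figure D4:**
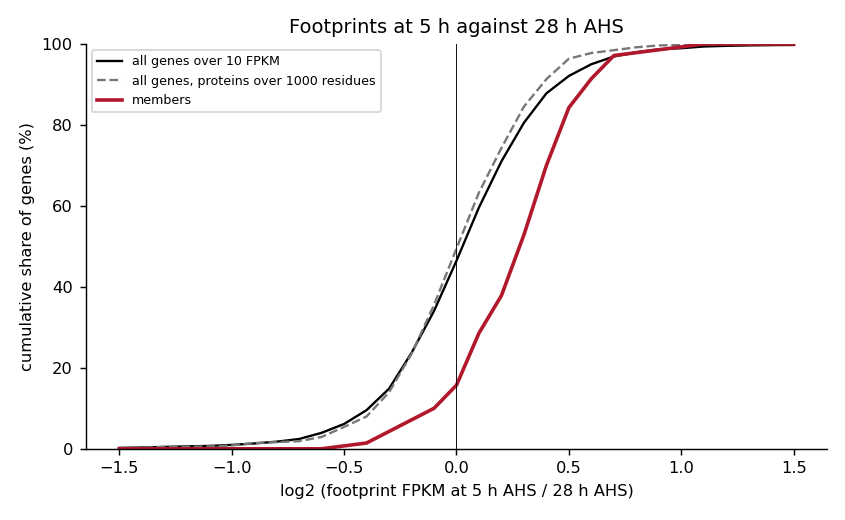
Cumulative percentage of genes against the log2 ratio of footprint FPKM at 5 h to 28 h AHS, for the 140 members (red), all 5627 genes (black) and the 853 genes for proteins over 1000 residues (grey, dashed). The members' curve lies to the right, with a median of 0.29 against 0.03 and 0.00.

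Between 18 and 28 h the members' footprints gave no such lean. They were higher at 18 h in 83 of 140 (59.3%) against 67.9% of all genes, with medians of 0.05 and 0.12, and 2 members were over 1.6-fold higher (1.43%, against 3.48%) and 1 lower (0.714%, against 1.17%). The median difference took the other sign, -0.07, after all time points were scaled to share 1 median. RNA was higher at 18 h in 86 members (61.4%, against 37.9% of all genes), with a median log2 difference of 0.03 against -0.04. Among 5, 18 and 28 h, footprints were highest at 5 h in 102 members (72.9%, against 32.1% of all genes). RNA was highest at 5 h of these in 106 (75.7%, against 43.1%).

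The members with the largest 5 h to 28 h footprint ratio, all among those 6 with shared RNA loci, were CG42565 (2229 and 1077 FPKM), shtd, an APC/C ubiquitin ligase subunit (21.5 and 11.5), Fdx1, a ferredoxin (72.5 and 40.9), LSm-4, a Sm-like protein (32.3 and 19.4), and CG6962 (29.6 and 18.2). In shtd the RNA differed as well, at 35.8 FPKM at 5 h and 19.6 at 28 h, the widest RNA range among the members from 5 h on and no HS, at 1.83 times. The smallest ratios belonged to CG42394 (236 and 335 FPKM), Cad87A, a cadherin (14.9 and 20.0), Cadps, a vesicle release factor (10.6 and 13.7), CG7879 (7.01 and 8.94) and the Wnt pathway scaffold Apc (11.9 and 15.1). In these 5 the footprints at 5 h were thus below those at 28 h, unlike in most members.

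Against no HS, which the rule used, 10 members were more than 1.6-fold higher in footprints at 5 h (7.14%, against 1.72%) and none lower (against 4%). At 18 h 3 were higher (2.14%, against 1.12%) and at 28 h 1 (0.714%, against 0.906%). At 0.5 h, soon after the heat, 15 were higher (10.7%, against 7.68%) and 2 lower (1.43%, against 5.47%). None was over 3-fold from no HS at 0.5 h in either assay. The extremes at 0.5 h were CG7879, at 21.4 footprint FPKM against 7.76, and mthl3, at 5.19 against 10.8, which was named for that value after it was seen.

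Just inside the 9 h fold lay E(bx), tud and CG7222, each at a ratio of 1.50, and just outside lay Blm, ste24a and Eps-15 at 1.498, 1.497 and 1.497. At the lower 38 h limit Gem3 (0.805), CG10600 (0.811) and ana3 (0.813) were inside, and CG4751 (0.789), Grip163 (0.786) and chinmo (0.772) outside. At the upper limit CG42394 (1.249), CG9515 (1.239) and Mical (1.233) were inside, and TMS1 (1.253), Dtd (1.255) and veli (1.258) outside. The differences across each limit were smaller than the width of the 95% bounds of these genes.

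Marker levels moved between the same time points. Summed footprints of 22 heat shock genes were 6326, 95513, 22072, 14660 and 6951 FPKM from no HS to 18 h, so the sum was above the start at 5 and 9 h. The typical gene was not, as the 14 over 10 FPKM in both assays had median log2 changes of 0.01 at 5 h and 0.05 at 9 h. At 9 h 4 of the 14 were over 1.5-fold higher and 1 lower, against 6.18% and 8.78% of all genes. The 16 sheath muscle markers summed to 1433 footprint FPKM before the heat shock and 858 at 9 h, then 1327 at 18 h, while their RNA sum was 2336 and 1947 at no HS and 9 h. Of the 10 muscle markers over 10 FPKM in both assays, 8 were over 1.6-fold lower in footprints at 9 h (against 6.26% of all genes), whereas Mhc, the long myosin heavy chain, was higher at 28.7 against 14.4 FPKM. The 20 follicle and escort cell markers summed to 76723 footprint FPKM before the heat shock, 31763 at 9 h, then 123662 at 18 h, most of it Vm26Aa. The 10 fat body and hemocyte markers lay at 131 to 235 in sum and the 16 germline markers at 2010 to 4598, the latter highest at 0.5 h with bam. Germline markers such as vas (391 and 399 footprint FPKM at no HS and 9 h) were plainly present, but not all were level. Of the 16, 1 was over 1.6-fold higher at 9 h (bam) and 2 were lower, against 3.75% and 6.26% of all genes. These 2 were nos (112 and 11.9 FPKM at no HS and 9 h) and ovo (71.6 and 41.3). The somatic markers en and inv were at or near 0. The part of any of these cell types or of the heat shock in the members' values was not tested.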

How the data were processed

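RNA-seq and Ribo-seq of whole ovaries were deposited as FPKM. The authors trimmed reads, removed non-coding RNA reads (Bowtie for footprints, Bowtie2 for RNA), aligned to dm6 with STAR and computed FPKM with Cuffdiff 2.2.1 over both replicates, collapsing duplicate footprint reads. The normalization between libraries is not given in the sources used here, and FPKM keeps no depth. The deposited FPKM bounds span 95%. Bounds of failed estimates, which do not hold their own FPKM, were not used.

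Genes were joined by symbol and the rule applied to the FPKM as deposited, with no pseudocount (Python 3.11.15, pandas 2.3.3). A call is a difference over 1.6-fold with over 10 FPKM at either time. The rule and the length correction (running median of 201 genes) were run on simulated data with less noise and larger planted changes than these data hold. That run checks the code and does not show how the rule performs at the precision of these data. Protein length and start sites came from Ensembl release 115, longest coding region per gene, and all 140 members matched. Members and gene lists were chosen with earlier results of these data known. Named genes are the 10 largest 9 h ratios, the 10 highest 9 h footprints, the 5 largest and 5 smallest 5 h to 28 h ratios, 3 on each side of each footprint limit, and members on a list. Alternatives changed the pseudocount, scaling, minimum, fold, bounds, length trend and shared loci.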

Additional observations from a re-analysis of the deposited data

How the results depend on the processing

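No paired analysis was possible because each column pools both replicates, and no replicate could be left out for the same reason. The number of genes that met the rule was 140. It was 90 with a minimum of 20 FPKM, 239 with none, 68 at 1.6-fold, 3 at 2-fold, 50 where the no HS and 9 h bounds did not overlap, and 65 without genes that share a locus or have a failed estimate. With the length trend removed the count was 108, but only 43 of the 140 were among them.

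The 6 members over 1.6-fold higher at 5 h than at 28 h became 10 with no minimum, 0 at 2-fold, 3 where the bounds did not overlap and 0 without shared loci. The last setting dropped all 6 for their RNA rows, and none of them shared a footprint locus. The 2 members over 1.6-fold higher at 18 h than at 28 h became 1 with a pseudocount of 1 FPKM, 1 with a minimum of 20 FPKM, 4 with none, 1 at 1.6-fold, 1 at 2-fold, 0 where the bounds did not overlap and 0 without shared loci. The median log2 footprint change at 28 h was 0.40 at 2-fold, over 3 genes. The cause was not tested beyond the smaller number of genes that a stricter rule leaves. The other medians moved by less than 0.17 on the log2 scale, which is the median standard error of a member's 9 h footprints. That error is for 1 gene at 1 time and does not measure the spread of a median over genes. The median 5 h to 28 h difference stayed between 0.13, at 2-fold over 3 genes, and 0.33. The median protein length lay between 816 and 1374 residues under the settings that kept the length trend, but fell to 288 in the 108 genes found with the trend removed. Read depth is unknown.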
